A study of Mus musculus with 8 samples.

Results

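Genes that start, carry out and brake cell division were followed in macrophages exposed to the compound C498, to LPS, or to both. The 40 genes were chosen by symbol from 55801 genes, and all were found: 16 cyclin regulators, 14 S phase genes and 10 mitosis genes. The cells were macrophages that an injection of thioglycollate had recruited to the peritoneum of young adult male C57BL/6 mice. In each of the 4 groups, 2 samples were sequenced. NC cells had the vehicle DMSO alone. C498 cells had 15 µM of C498, a small molecule that the study selected from a screen for inhibitors of JAK/STAT and NFκB signaling. LPS cells had 100 ng/ml of LPS, an endotoxin from the outer membrane of bacteria, for 4 h, and C498+LPS cells had C498 from 0.5 h before LPS. NC and C498 cells are listed with the same periods of 0.5 h and 4 h, without LPS. The labels do not say whether the samples of a group came from separate mice or cultures, so p-values measure only the spread between these samples, which may be technical.

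A cell enters division when D and E cyclins switch on their kinases, Cdk4, Cdk6 and Cdk2, which frees E2F transcription factors to turn on the genes of DNA replication. Inhibitors such as p21 (Cdkn1a), p27 (Cdkn1b) and p18 (Cdkn2c) block these kinases, and p21 is a classic target of the tumor suppressor p53. Cyclin B with Cdk1, Plk1 and the Aurora kinases then drive mitosis. Elicited macrophages are known to divide little in culture.

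Values are TPM levels, scaled for the length of each gene and to 1 total in all samples, so that levels of different genes can be compared. The depth behind each value is unknown, since TPM levels keep no read counts. Between 17528 and 18975 genes were above 0 in a sample. Changes are differences of log2(TPM + 1), which draws the changes of low genes towards 0. A gene was called when it changed at least 2-fold on this scale with a limma adjusted p of at most 0.05 over the 12189 genes with a mean TPM level of at least 1. Of the 40 genes 39 were tested, and E2f2, at a mean of 0.614 TPM, was not. With 2 samples against 2, an exact two-sided permutation test of a single value cannot give a p below 0.333. All 7 macrophage markers were above 1 TPM on average, and their summed TPM level was 19850 to 20350 in NC, 16590 to 17220 in LPS, 15250 to 15410 in C498 and 10630 to 12410 in C498+LPS. Of these markers Lyz2 had the highest mean, at 12310 TPM. The 2 markers of resident peritoneal macrophages, Gata6 and Timd4, were not part of this sum. They summed to 4.49 to 6.13 TPM in NC, 4.12 to 4.27 in LPS, 7.42 to 9.26 in C498 and 5.19 to 8.53 in C498+LPS. All 5 fibroblast markers were above 1 TPM too, and their sum was 150.2 to 192 in NC, 176 to 201 in LPS, 633 to 750.0 in C498 and 618 to 911 in C498+LPS. The 4 mesothelial markers summed to 1.62 to 1.83 TPM in the samples without C498 and 5.53 to 10.7 in those with it. The sum of the 5 neutrophil markers was 118 to 168 TPM in NC, 133 to 156 in LPS, 71.1 to 73.4 in C498 and 85.1 to 97.8 in C498+LPS. Of these markers, S100a8 averaged 82.8 TPM and Csf3r 26.7 over all samples, while Retnlg averaged 2.67, Ly6g 0.3275 and S100a9 0.2188. The markers of endothelial cells, B cells, mast cells and myeloid progenitors summed to at most 20.45 TPM. No defining marker of T cells or eosinophils reached a mean of 1 TPM. In such bulk samples, fewer cells of a type, less RNA per cell and a change of the marker genes within cells cannot be told apart.

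Promoter sequences of RefSeq on GRCm38.p6 were matched for 34 of the 40 genes, as the 250 bases before a start of transcription that RefSeq annotates. For the genes below, which are among the 8 called in a comparison, the sequence runs 5′ to 3′ on the strand of the gene. Capitals mark matches to the motifs searched. The called genes Ccnd2, Cdkn2c and Mki67 are not printed, and for Ccnd2 no promoter was matched. The Cdkn1a sequence lies at chr17:29090729-29090978, Ccne1 at chr7:38107491-38107740 on the minus strand, Rrm2 at chr12:24708004-24708253, Mcm7 at chr5:138171884-138172133 on the minus strand, and Plk1 at chr7:122159185-122159434. The RefSeq starts of Cdkn1a, Plk1 and Rrm2 lie 0, 4 and 13 bases from a start in the GENCODE annotation, that of Ccne1 44 bases and that of Mcm7 539 bases from one. The whole Mcm7 sequence and the last bases of the Cdkn1a, Ccne1 and Rrm2 sequences therefore lie within the gene spans given for them.
Cdkn1a: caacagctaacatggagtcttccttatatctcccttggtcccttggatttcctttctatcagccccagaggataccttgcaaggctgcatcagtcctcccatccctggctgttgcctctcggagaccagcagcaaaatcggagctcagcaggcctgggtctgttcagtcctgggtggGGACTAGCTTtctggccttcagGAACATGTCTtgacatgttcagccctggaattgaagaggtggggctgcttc
Ccne1: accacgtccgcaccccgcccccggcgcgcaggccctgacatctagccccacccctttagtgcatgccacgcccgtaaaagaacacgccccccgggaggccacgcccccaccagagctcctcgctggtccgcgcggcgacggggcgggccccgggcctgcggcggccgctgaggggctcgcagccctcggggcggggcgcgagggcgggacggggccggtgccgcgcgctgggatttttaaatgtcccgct
Rrm2: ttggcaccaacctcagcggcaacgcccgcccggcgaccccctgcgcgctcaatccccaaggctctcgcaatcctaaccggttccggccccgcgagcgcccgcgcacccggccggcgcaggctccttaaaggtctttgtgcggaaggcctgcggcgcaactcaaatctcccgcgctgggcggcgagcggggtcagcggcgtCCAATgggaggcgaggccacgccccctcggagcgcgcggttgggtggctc
Mcm7: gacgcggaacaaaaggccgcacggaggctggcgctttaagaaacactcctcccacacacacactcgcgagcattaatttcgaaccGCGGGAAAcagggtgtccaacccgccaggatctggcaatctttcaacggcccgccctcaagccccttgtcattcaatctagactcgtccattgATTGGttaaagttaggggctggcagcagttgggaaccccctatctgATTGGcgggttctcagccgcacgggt
Plk1: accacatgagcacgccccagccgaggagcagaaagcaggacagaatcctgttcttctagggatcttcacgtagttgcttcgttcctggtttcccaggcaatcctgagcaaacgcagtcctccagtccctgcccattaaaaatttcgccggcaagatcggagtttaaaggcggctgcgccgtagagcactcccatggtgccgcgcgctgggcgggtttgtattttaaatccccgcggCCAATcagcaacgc
In Cdkn1a the capitals are 2 decamers of the p53 motif, 73 and 51 bases before the start, and in Mcm7, where the window lies inside the GENCODE gene, they are 1 E2F site and 2 CCAAT boxes. Rrm2 and Plk1 each hold 1 CCAAT box, and Ccne1 holds none of the motifs.

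The motifs were searched on both strands. An E2F site (TTTCCCGC or TTTGGCGC) was found in 6 of the 34 promoters, or 17.65%, against 1.3% of all 32851 promoters of the same length. Those genes were Cdc25a, Cdc6, Cdk2, Mcm5, Mcm6 and Mcm7, with 4 among the 13 S phase genes and 0 among the 9 mitosis genes. The CHR element (TTTGAA) was found in 7 promoters, or 20.59%, against 15.99% of all, and 4 of these belong to the 9 mitosis genes. The CCAAT box (CCAAT) was found in 23, or 67.65%, against 33.85% of all. Single p53 decamers were found in 4, or 11.76%, against 7.13% of all. The pair of p53 decamers, with a spacer of 0 to 13 bases and no mismatch, was found in Cdkn1a alone among the 34 (2.94%) and in 0.06% of all promoters, and was searched for after the expression values of Cdkn1a were seen. A match says only that these letters stand in the window.

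The levels spanned a wide range. Cdkn1a had the highest mean over all samples at 432.5 TPM, followed by Pcna, the sliding clamp of the replication fork, at 187.5 TPM and Cdk4, the kinase partner of D cyclins, at 107 TPM. A further 11 genes lay between 10 and 100 TPM, and 26 lay under 10 TPM. Genes whose proteins act in 1 complex could be far apart in RNA level: Cdk4 was at 119 and 118 TPM in NC, while Cdk6 was at 15.6 and 4.84 TPM and Ccnd1 at 1.48 and 1.35 TPM. Among the mitosis genes the highest mean was that of Ube2c, a ubiquitin-conjugating enzyme of the anaphase-promoting complex, at 4.38 to 10.8 TPM over the samples.

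**Figure D1:**
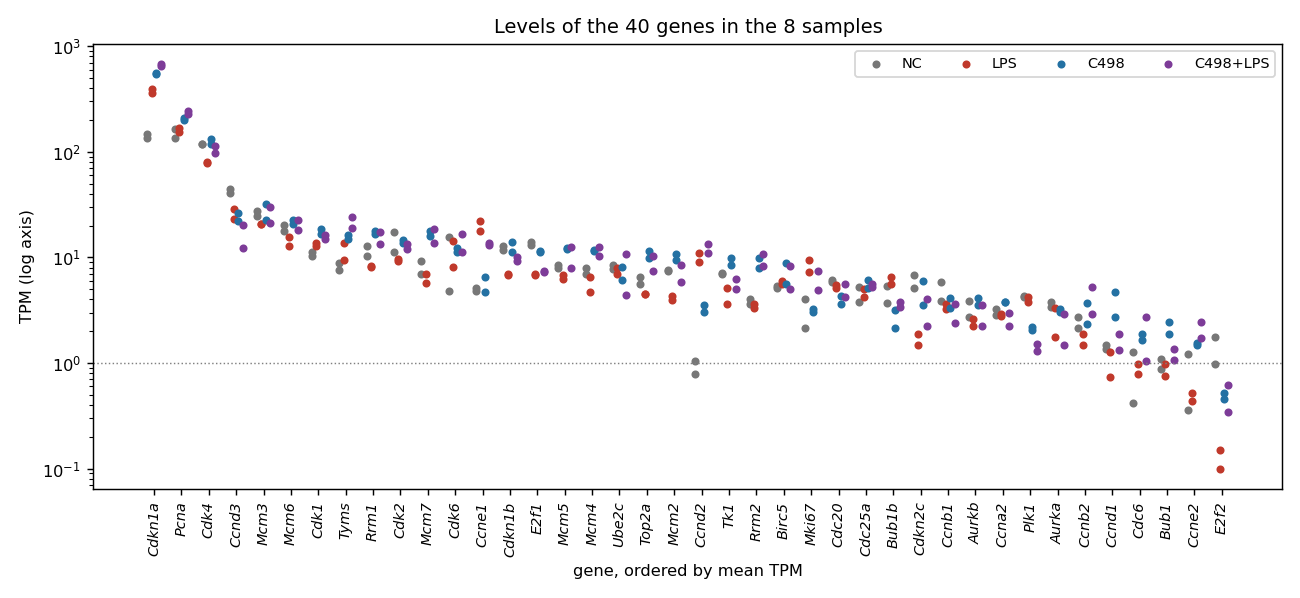
TPM levels of the 40 genes (log axis) in the 8 samples, 1 point a sample and coloured by group, with the genes ordered by their mean and a dotted line at 1 TPM. Only Cdkn1a, Pcna and Cdk4 have a mean of at least 100 TPM, and E2f2 is the only gene with a mean under 1 TPM.

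Of the 39 genes tested, 8 were called in at least 1 comparison: Cdkn1a, Ccnd2, Ccne1, Cdkn2c, Rrm2, Mcm7, Mki67 and Plk1. The other 31 were called in none.

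**Figure D2:**
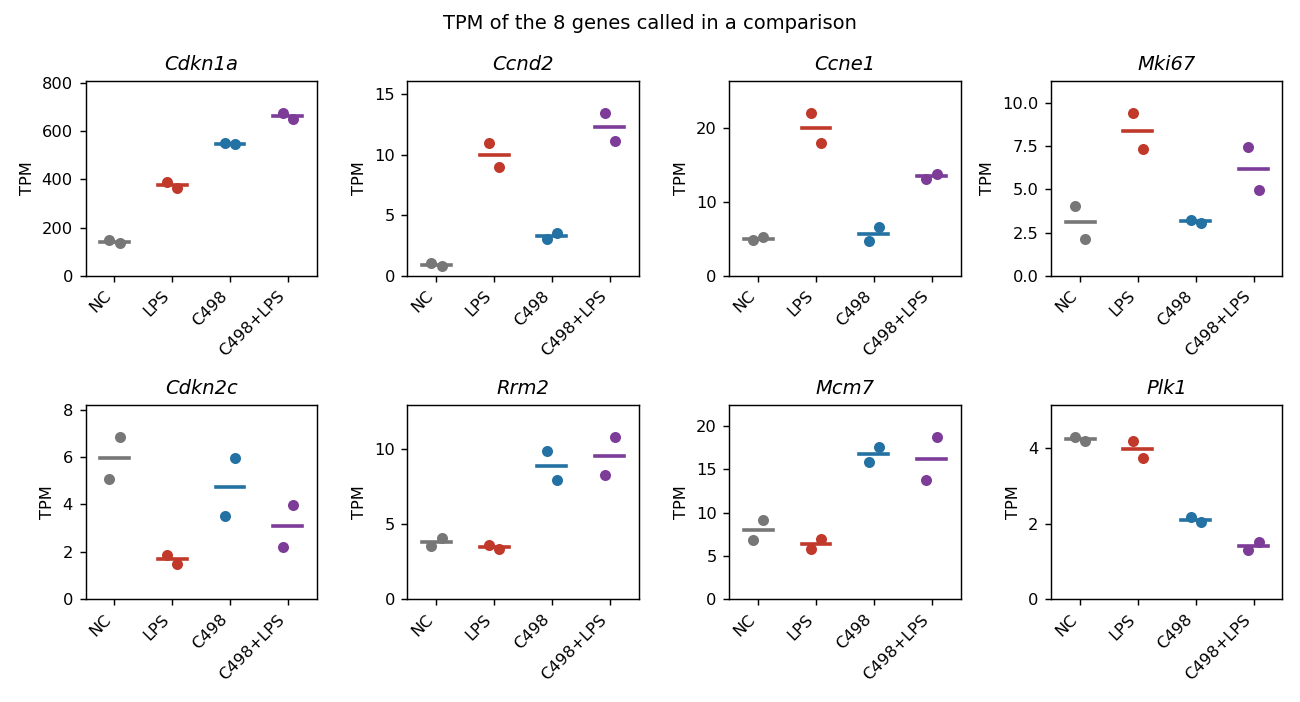
TPM levels (axes from 0) of the 8 called genes in NC, LPS, C498 and C498+LPS, with 1 point a sample and a bar at the mean of 2 samples. Cdkn1a is lowest in NC and highest in C498+LPS, Ccnd2, Ccne1 and Mki67 are high in both groups with LPS, and Rrm2 and Mcm7 are high and Plk1 low in both groups with C498.

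Cdkn1a, which encodes p21, was higher in every treated group than in NC (ENSMUSG00000023067, chromosome 17, 29090976 to 29100727, plus strand, GRCm38). Its TPM level was 147 and 136 in NC, 389.8 and 363 in LPS, 551 and 547 in C498, and 675 and 652 in C498+LPS. No groups overlapped, and the order of the groups was the same for every sample. LPS alone raised Cdkn1a 2.66-fold, from 141 ± 8.13 to 376 ± 19.2 TPM (SD, n = 2), with a log2 change of 1.41 (SE 0.0821, limma adjusted p = 4.8e-05). C498 alone raised it 3.89-fold to 549 ± 2.65 TPM (log2 change 1.95, limma adjusted p = 3.9e-05). C498+LPS was 1.76-fold above LPS, which passed the adjusted p (0.00139, limma) and not the 2-fold threshold, and 1.21-fold above C498 (log2 change 0.27, limma adjusted p = 0.065).

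The LPS response of Cdkn1a was thus smaller on the log scale when C498 was present. The interaction of C498 and LPS, the test of that difference, was -1.13 (SE 0.116, limma adjusted p = 0.019), and Cdkn1a was the only one of the 39 genes called in it, where 0.394% of all tested genes were called in that direction and 0.0738% in the other. In TPM levels, the mean was 235 higher with LPS alone than in NC and was 114 higher in C498+LPS than in C498. The adjusted p of the interaction was above 0.05 when any 1 of the LPS, C498 or C498+LPS samples was left out, with a log2 value of -1.08 to -1.19 and a limma adjusted p of 0.0591 to 0.102. The largest of these was without LPS replicate 1. The fibroblast and mesothelial marker sums were higher and the macrophage and neutrophil marker sums lower in the samples with C498 than in those without it, and their part in the result was not tested. Exons of Cdkn1a overlap the gene AC167363.2 on the other strand, and whether counting used the strand is not stated.

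The CDK inhibitors Cdkn2c and Cdkn1b were lower with LPS alone, where Cdkn1a was higher. Cdkn2c, which encodes p18, a blocker of Cdk4 and Cdk6, was at 5.08 and 6.84 TPM in NC, 1.89 and 1.48 in LPS, 3.5 and 5.94 in C498, and 2.22 and 3.99 in C498+LPS. Its LPS samples were the lowest of all, and its level in NC was 3.54-fold that in LPS (log2 change -1.37, SE 0.312, limma adjusted p = 0.0162). That call was lost without LPS replicate 1 (adjusted p = 0.0694), without LPS replicate 2 (0.0983) and without NC replicate 2 (0.0653), and without the filter on low values (0.0568). Cdkn1b, which encodes p27, was at 12.8 and 11.6 TPM in NC, 7.0 and 6.84 in LPS, 14.1 and 11.1 in C498, and 10.2 and 9.17 in C498+LPS. It fell by 0.74 on the log2 scale with LPS, which passed the adjusted p (limma, 0.0143) and not the 2-fold threshold. In C498+LPS against C498 neither gene passed, at log2 changes of -0.48 for Cdkn2c and -0.34 for Cdkn1b. Like Cdkn1a, both were higher in every C498+LPS sample than in every LPS sample, but neither passed there (log2 change 0.58 and 0.43, limma adjusted p = 0.257 and 0.122).

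Among the G1 cyclins, Ccnd2 and Ccne1 were called with LPS in the absence and in the presence of C498. Ccnd2, a D cyclin (chromosome 6, 127125162 to 127152193, minus strand), was at 1.04 and 0.78 TPM in NC, 11.0 and 8.95 in LPS, 3.01 and 3.55 in C498, and 13.4 and 11.1 in C498+LPS. Both groups with LPS lay far above both groups without it. With LPS alone it rose 10.95-fold (log2 change 2.52, SE 0.199, limma adjusted p = 0.000182), and on C498 it rose 3.74-fold (log2 change 1.63, limma adjusted p = 0.0029). C498 alone raised it 3.60-fold (log2 change 1.16, limma adjusted p = 0.011), a call that was lost without C498 replicate 1 (adjusted p = 0.0667) or C498 replicate 2 (0.0874), and in a fit of NC and C498 alone (0.0567). C498+LPS against LPS gave a log2 change of 0.28 (limma adjusted p = 0.40).

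Ccne1, the partner of Cdk2 at the start of S phase (chromosome 7, 38097984 to 38107534, minus strand), was at 4.76 and 5.18 TPM in NC, 21.9 and 17.9 in LPS, 4.69 and 6.55 in C498, and 13.1 and 13.8 in C498+LPS. The groups with LPS stood apart from those without it, and C498+LPS lay below LPS in every sample. It rose 4.01-fold with LPS alone (log2 change 1.80, SE 0.189, limma adjusted p = 0.000698) and 2.39-fold on C498 (log2 change 1.14, limma adjusted p = 0.00953). The second call was lost without C498+LPS replicate 1 (adjusted p = 0.0558), C498+LPS replicate 2 (0.0733) or C498 replicate 1 (0.0783). The difference between these responses did not pass for either cyclin, with an interaction of -0.89 for Ccnd2 (limma adjusted p = 0.32) and of -0.66 for Ccne1 (0.43).

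The relatives of these cyclins had other patterns. Ccnd3, the most abundant D cyclin, was at 40.9 and 44.1 TPM in NC, 23.0 and 28.6 in LPS, 26.6 and 22.0 in C498, and 12.1 and 20.4 in C498+LPS. Every sample with LPS or C498 lay below both NC samples, but no comparison passed (log2 change -0.71 for LPS vs NC and -0.79 for C498 vs NC, limma adjusted p = 0.0623 and 0.0667). Ccnd1 stayed between 0.74 and 4.65 TPM and Ccne2 between 0.36 and 2.44 TPM, and neither passed in a comparison. Cdk4 fell by 0.57 on the log2 scale with LPS (limma adjusted p = 0.00894), from 119 and 118 to 78.4 and 80.5 TPM, and it was 0.40 higher in C498+LPS than in LPS (0.0489, limma), both under 2-fold. Neither passed after centring on the median gene (limma adjusted p = 0.103 and 0.193). Cdk2, Cdk6 and the phosphatase Cdc25a passed in no comparison, and the NC samples of Cdk6 were far apart, at 15.6 and 4.84 TPM.

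Of the 13 S phase genes tested, 1 was called higher in C498 vs NC, Rrm2, and 2 in C498+LPS vs LPS, Rrm2 and Mcm7, where 5.64% and 5.39% of all tested genes were called higher. By the adjusted p alone 4 and 6 passed higher, where 9.29% and 9.08% of all tested genes did, and none was lower by that rule. In C498 vs NC, 12 of the 13 were higher (11 after centring on the median gene), with a median log2 change of 0.51 where that of all tested genes was 0.01, and in C498+LPS vs LPS all 13 were higher, with a median of 0.55 against 0.01. The groups did not overlap for 11 and 12 of them, where 29.3% and 31.9% of all tested genes were higher without overlap. These 2 comparisons share no sample, and 12 of 13 (92.3%) were higher in both, against 36.8% of all tested genes. The summed TPM level of all 14 S phase genes was 257 to 288 in NC, 245 to 261 in LPS, 367 to 373 in C498 and 359 to 415 in C498+LPS. The fibroblast and mesothelial marker sums were higher and the macrophage and neutrophil marker sums lower in the same samples, in the ranges given above, and their part in the result was not tested.

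**Figure D3:**
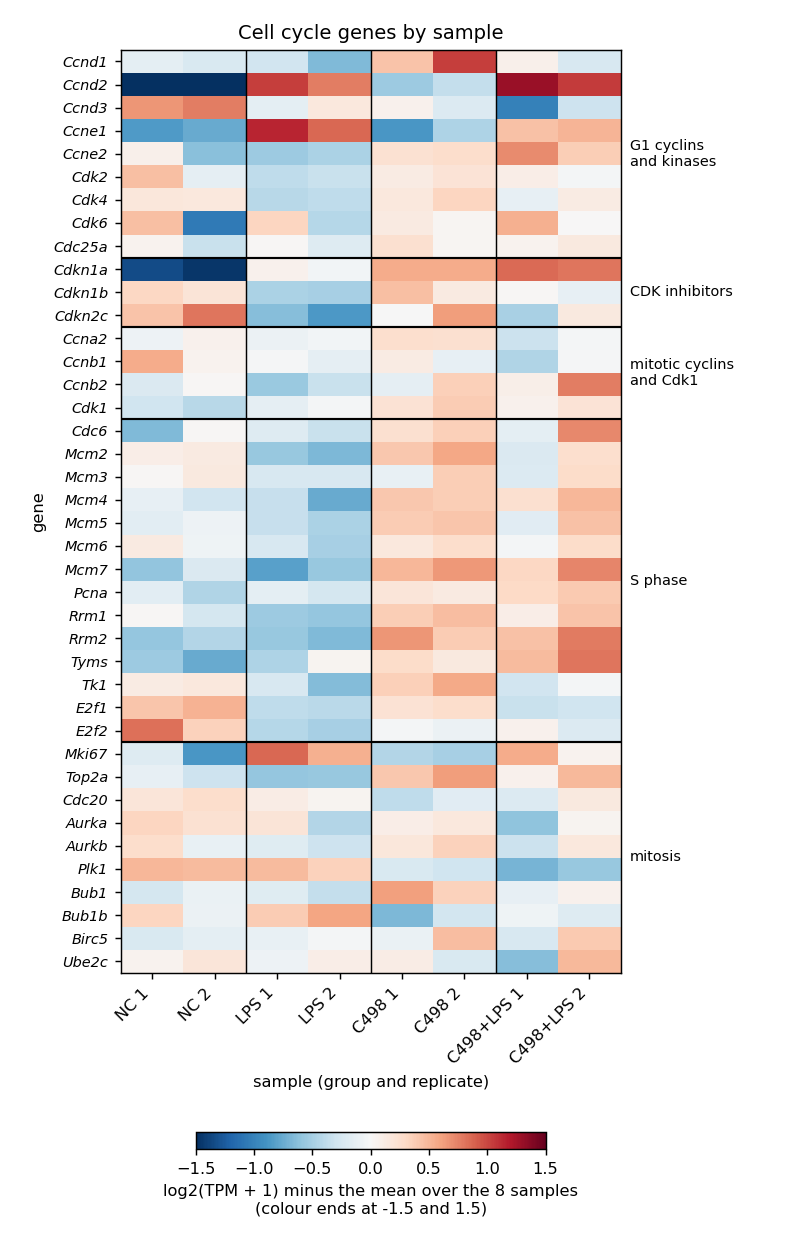
Each gene's log2(TPM + 1) in each of the 8 samples minus its mean over them, with colours that end at -1.5 and 1.5. The S phase block is mostly red in both C498 samples and blue in both LPS samples, whereas the mitosis block has no common pattern. Centring on the median gene leaves the LPS pattern at 9 of 13 S phase genes lower than in NC.

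The genes that make deoxynucleotides included the called gene Rrm2, the regulated subunit of ribonucleotide reductase (chromosome 12, 24708241 to 24714146, plus strand). Rrm2 was at 3.58 and 4.07 TPM in NC, 3.64 and 3.33 in LPS, 9.84 and 7.95 in C498, and 8.29 and 10.8 in C498+LPS. All samples with C498 were higher than all samples without it. It rose 2.33-fold in C498 vs NC (log2 change 1.03, SE 0.197, limma adjusted p = 0.0161) and 2.74-fold in C498+LPS vs LPS (log2 change 1.22, limma adjusted p = 0.0074). The first call was lost without C498 replicate 1 (log2 change 0.89, adjusted p = 0.126), C498 replicate 2 (1.17, 0.069) or NC replicate 1 (0.96, under 2-fold), after centring (0.91), and in a fit of NC and C498 alone (adjusted p = 0.0871). The second was lost without C498+LPS replicate 2 (adjusted p = 0.0637), LPS replicate 1 (0.0544) or LPS replicate 2 (0.0674).

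Its partner subunit Rrm1 was at 12.7 and 10.3 TPM in NC, 8.28 and 8.07 in LPS, 16.5 and 17.6 in C498, and 13.5 and 17.2 in C498+LPS. The difference passed the adjusted p in C498+LPS vs LPS (log2 change 0.83, limma, 0.0175) and not in C498 vs NC (0.54, limma, 0.0739). Tyms, which makes thymidylate, was at 8.82 and 7.52 TPM in NC, 9.45 and 13.7 in LPS, 16.4 and 14.9 in C498, and 19.0 and 24.1 in C498+LPS. It was higher in every sample with C498 than in every sample without. Tk1, which salvages thymidine, was at 6.96 and 7.18 TPM in NC, 5.17 and 3.65 in LPS, 8.39 and 9.82 in C498, and 4.98 and 6.17 in C498+LPS. It was higher in C498 than in NC without overlap, but its LPS and C498+LPS samples overlapped and both lay below the groups without LPS, and it passed in no comparison.

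The 6 genes Mcm2 to Mcm7 encode the replicative helicase. All 6 were higher in C498+LPS than in LPS, and all 6 were higher in C498 than in NC, of which Mcm3 turned to lower when each sample was centred on its median gene. Mcm7 (chromosome 5, 138164583 to 138172422, minus strand) was at 6.90 and 9.19 TPM in NC, 5.77 and 6.98 in LPS, 15.8 and 17.6 in C498, and 13.75 and 18.7 in C498+LPS. Its levels with C498 were all above those without it. It rose 2.55-fold in C498+LPS vs LPS (log2 change 1.21, SE 0.208, limma adjusted p = 0.00926), and in C498 vs NC its log2 change of 0.98 passed the adjusted p (limma, 0.0228) but was just under the fold threshold. The call was lost without C498+LPS replicate 2 (adjusted p = 0.0783), LPS replicate 1 (0.0812) or LPS replicate 2 (0.0534). Exons of Mcm7 overlap Mir25 and Mir93 on the same strand and Cops6 and Ap4m1 on the other.

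Mcm4 was at 7.88 and 6.93 TPM in NC, 6.58 and 4.70 in LPS, 11.8 and 11.5 in C498, and 10.4 and 12.6 in C498+LPS. Of the other helicase genes, only Mcm4 also passed the adjusted p with C498, in C498+LPS vs LPS (log2 change 0.92, limma, 0.0187). The smallest helicase difference with C498 was that of Mcm3, with log2 changes of 0.05 in C498 vs NC and 0.28 in C498+LPS vs LPS. With LPS alone all 6 were lower than in NC, also after centring, with log2 changes from -0.73 for Mcm2 to -0.29 for Mcm5 and Mcm7, and of these Mcm2 passed the adjusted p (limma, 0.0292), though not after centring (0.0898). On C498 all 6 were lower with LPS as well, at log2 changes of -0.02 to -0.47, but 4 of them turned to higher after centring and none passed.

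Pcna was at 165 and 134 TPM in NC, 167 and 153 in LPS, 209.7 and 202 in C498, and 227 and 241 in C498+LPS. The C498 samples were all above those without it. The log2 change was 0.46 in C498 vs NC and 0.55 in C498+LPS vs LPS (limma adjusted p = 0.0376 and 0.0193), both under 2-fold. Cdc6, which loads the helicase onto DNA, was low at 0.42 to 2.70 TPM and passed in no comparison.

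The E2F transcription factors E2f1 and E2f2 were lower with LPS alone. E2f1 was at 12.99 and 13.95 TPM in NC, 7.03 and 6.86 in LPS, 11.1 and 11.55 in C498, and 7.28 and 7.50 in C498+LPS. Its levels were lower in both groups with LPS than in both groups without it. It fell by 0.86 on the log2 scale with LPS alone and by 0.56 with LPS on C498 (limma adjusted p = 0.0038 and 0.0347), both under 2-fold. E2f2 was at 1.75 and 0.97 TPM in NC, 0.15 and 0.10 in LPS, 0.52 and 0.46 in C498, and 0.62 and 0.34 in C498+LPS, and its mean was under the filter. In a fit without the filter it was called lower in LPS vs NC (log2 change -1.05, limma adjusted p = 0.022), which the 39 genes tested leave out. Without the filter its log2 change was -0.64 in C498 vs NC (limma adjusted p = 0.123), -0.02 with LPS on C498 (1.0) and 0.39 in C498+LPS vs LPS (0.346).

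The 10 mitosis genes were divided in direction with C498. Of these, 5 were higher and 5 lower in C498 vs NC (4 and 6 after centring), and 4 were higher and 6 lower in C498+LPS vs LPS. Their summed TPM level was 43.0 to 47.1 in NC, 46.1 to 48.5 in LPS, 43.7 to 48.4 in C498 and 38.5 to 52.8 in C498+LPS, and the ranges of all groups overlapped.

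Plk1, a kinase that cells need to enter and complete mitosis (chromosome 7, 122159439 to 122169873, plus strand), was at 4.30 and 4.21 TPM in NC, 4.2 and 3.75 in LPS, 2.19 and 2.04 in C498, and 1.30 and 1.52 in C498+LPS. All samples with C498 lay below all samples without it. It was 2.82-fold lower in C498+LPS than in LPS (log2 change -1.05, SE 0.192, limma adjusted p = 0.0119), and its change of -0.75 in C498 vs NC passed the adjusted p (limma, 0.0402) and not the fold threshold. The call was lost without C498+LPS replicate 1 (log2 change -0.98, under 2-fold), LPS replicate 1 (-0.98, adjusted p = 0.0814) or LPS replicate 2 (-1.11, 0.0626). Bub1b, of the spindle checkpoint, was at 5.30 and 3.73 TPM in NC, 5.54 and 6.57 in LPS, 2.14 and 3.15 in C498, and 3.80 and 3.41 in C498+LPS, and passed in no comparison.

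Mki67, which encodes the proliferation marker Ki-67 (chromosome 7, 135689784 to 135716361, minus strand), was at 4.04 and 2.15 TPM in NC, 9.41 and 7.34 in LPS, 3.23 and 3.07 in C498, and 7.48 and 4.95 in C498+LPS. Every sample with LPS lay above every sample without it. It rose 2.71-fold in LPS vs NC (log2 change 1.23, SE 0.288, limma adjusted p = 0.018), and the log2 change on C498 was 0.78 (limma adjusted p = 0.113). The call was lost without LPS replicate 1 (adjusted p = 0.118), LPS replicate 2 (0.0621) or NC replicate 2 (0.058), in a fit of NC and LPS alone (0.0805), and without the filter on low values (0.0587).

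Top2a, the topoisomerase that untangles chromosomes before they part, was at 6.47 and 5.57 TPM in NC, 4.45 and 4.50 in LPS, 9.78 and 11.6 in C498, and 7.48 and 10.4 in C498+LPS. Its C498 samples were higher than those without it, and it passed the adjusted p in C498 vs NC (limma, 0.0478) and in C498+LPS vs LPS (0.0281). The first was lost in 11 of 14 alternatives, among them centring (limma adjusted p = 0.0631) and leaving out either C498 replicate (0.150 and 0.236), and the second in 7. Cdk1, the kinase of mitotic entry, was at 11.2 and 10.3 TPM in NC, 12.7 and 13.8 in LPS, 16.6 and 18.6 in C498, and 14.8 and 16.35 in C498+LPS. It passed the adjusted p in C498 vs NC alone (log2 change 0.66, limma, 0.0216), under 2-fold. The mitotic cyclins Ccna2, Ccnb1 and Ccnb2, which partner Cdk1, lay between 1.49 and 5.88 TPM and passed in no comparison. The same held for Cdc20, which activates the anaphase-promoting complex, for the kinases Aurka and Aurkb, for Bub1 of the spindle checkpoint, for Birc5 (survivin) and for Ube2c, whose C498+LPS samples stood far apart at 4.38 and 10.8 TPM.

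Over the comparisons, 18 differences passed the adjusted p under 2-fold, and 17 missed the adjusted p under at least 1 alternative, all but Cdkn1a in C498+LPS vs LPS, with the direction kept in each case. Of 14 alternatives, Mcm2 with LPS, Pcna in C498 vs NC and Cdk4 in C498+LPS vs LPS each missed it in 9, as did Plk1 in C498 vs NC among 13. Tyms missed it in 8 in both C498 comparisons, E2f1 in 8 with LPS on C498 and in 1 with LPS alone, Cdk1 and Mcm7 in 6 in C498 vs NC, Mcm4 and Rrm1 in 5 and Pcna in 4 in C498+LPS vs LPS, and Cdkn1b and Cdk4 in 3 with LPS. After centring, Tyms (limma adjusted p = 0.0553) and Mcm7 (0.0624) in C498 vs NC and E2f1 with LPS on C498 (0.212) were among those that did not pass.

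Counted over the 39 tested genes, the response to LPS had 4 genes called higher and 1 called lower. Of all tested genes 5.55% were called higher and 6.68% lower. Without either LPS replicate or NC replicate 2, 0 were called lower. Without the fold threshold, 4 passed higher and 5 lower, the latter being Cdk4, Cdkn1b, Cdkn2c, Mcm2 and E2f1, against 9.84% and 19.8% of all tested genes. For 8 genes both LPS samples lay above both NC samples and for 21 below, where 19.3% and 42.2% of all tested genes were so. The median log2 change was -0.28 against -0.17 over all genes. Centring each sample on its median gene brought the latter to -0.0005 and changed the split of the 39 from 12 higher and 27 lower to 18 and 21, and that of the mitosis genes from 3 and 7 to 7 and 3.

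With LPS on C498, 2 of the 39 genes were called higher (2.52% of all tested genes) and 0 lower (3.13%), while 9 had an unadjusted p under 0.05 in limma, as had 31.9% of all tested genes. Without either C498+LPS replicate or C498 replicate 1, 1 was called higher. Without the fold threshold 2 passed higher (4.51% of all tested genes) and 1 lower, E2f1 (11.7%). The groups did not overlap for 8 genes higher and 14 lower, where 17.4% and 48.8% of all tested genes were so. The comparison shares no sample with LPS vs NC. Called higher in both were Ccnd2 and Ccne1, which is 5.13% of the 39 genes against 2.19% of all tested genes. Higher without overlap in both were these and Cdkn1a, Tyms, Mki67 and Bub1b, or 6 of the 39 (15.4%) against 11.6% of all tested genes, and 11 (28.2%) were lower without overlap in both, against 31.5%. Of the 39 genes, 23 (59.0%) were lower in both, against 53.4% of all tested genes.

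C498 alone gave 3 genes called higher (5.64% of all tested genes), Cdkn1a, Ccnd2 and Rrm2, and 0 called lower (1.36%), with 17 at an unadjusted p under 0.05 in limma, as were 32.0% of all tested genes. Without the fold threshold 8 passed higher (9.29% of all tested genes) and 1 lower, Plk1 (6.19%). The groups did not overlap for 20 genes higher (29.3%) and 6 lower (28.4%). C498+LPS vs LPS gave 2 called higher (5.39%), Rrm2 and Mcm7, and 1 called lower (2.18%), Plk1. Without the fold threshold 9 passed higher (9.08%) and 1 lower (7.7%). The groups did not overlap for 25 genes higher and 4 lower, where the shares of all tested genes were 31.9% and 30.9%. Separated higher in both C498 comparisons were 17 of the 39 (43.6%), against 19.8% of all tested genes, and separated lower in both were Plk1, Bub1b and Ccnd3 (7.69%, against 16.9%). Called higher in both was Rrm2 alone, or 2.56% against 3.5% of all tested genes. Without either C498 replicate, 1 gene instead of 3 was called higher in C498 vs NC. In C498+LPS vs LPS, 0 were called higher without C498+LPS replicate 2 or LPS replicate 2, 1 without LPS replicate 1 and 4 without C498+LPS replicate 1, and 2 were called lower without C498+LPS replicate 2 and 0 without any 1 of the other C498+LPS and LPS samples.

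**Figure D4:**
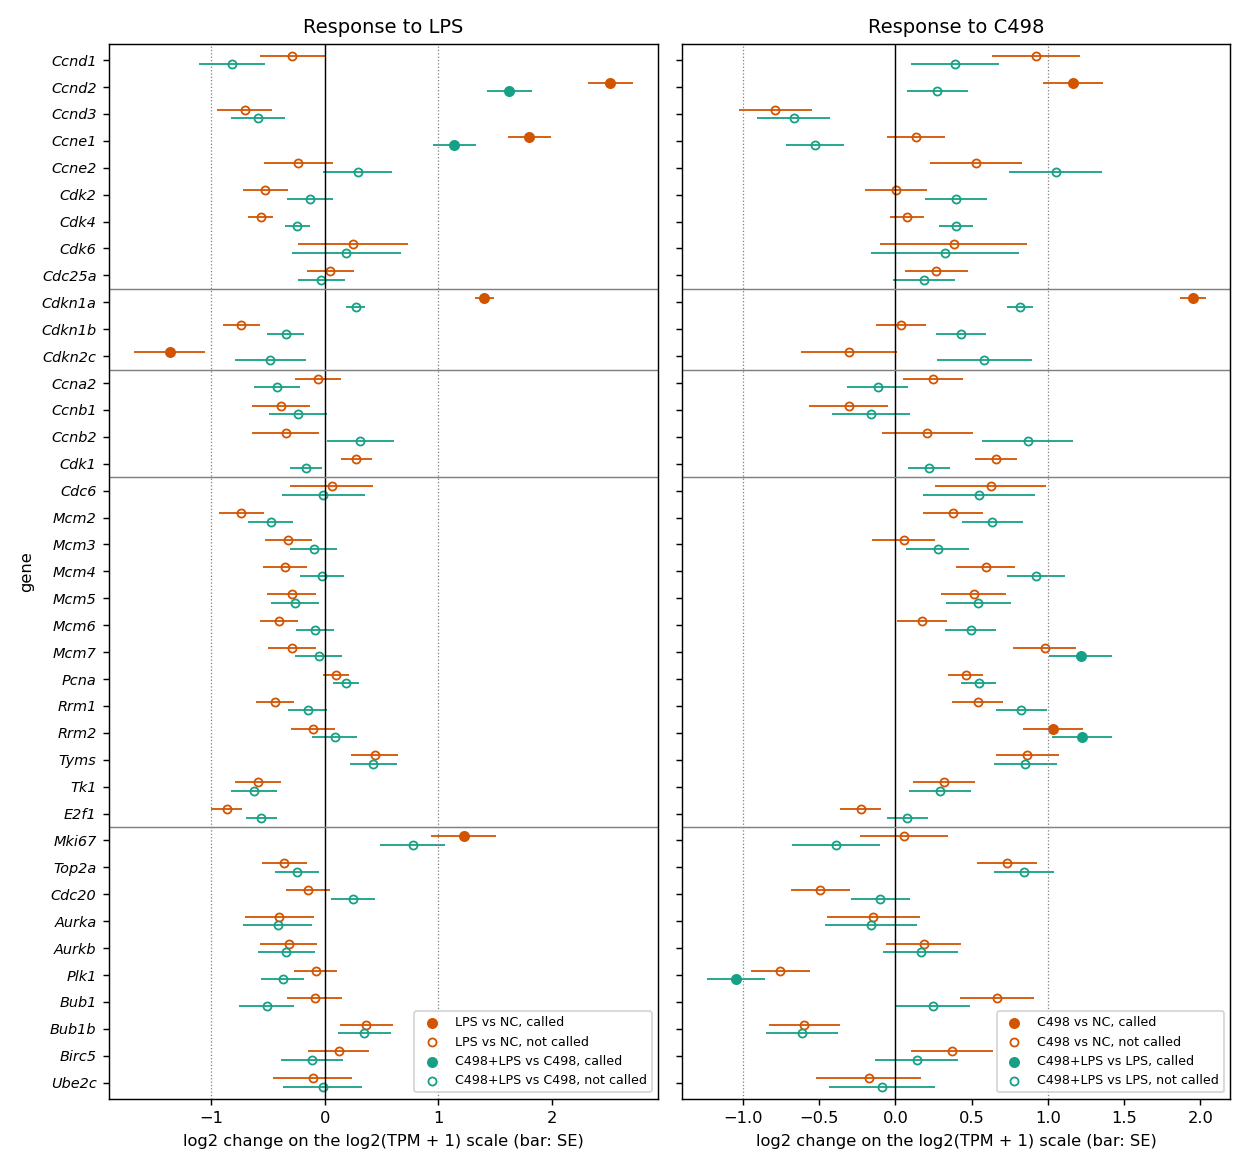
Log2 changes (log2(TPM + 1) scale) of the 39 tested genes with bars of 1 SE, to LPS without and with C498 (left) and to C498 without and with LPS (right); filled points are called and dotted lines mark 2-fold. Ccnd2 and Ccne1 are called in both LPS comparisons and Rrm2 in both C498 comparisons, and the S phase genes lie mostly to the right of 0 in the C498 panel.

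Other genes of the cell cycle were taken from 4 lists with 182 genes, of which 165 were tested. Of the replication list, with 54 tested, 1 was called higher and 6 lower with LPS, at a median log2 change of -0.42 against -0.17 over all tested genes, of which 5.55% were called higher and 6.68% lower. The largest changes were those of Gmnn, an inhibitor of replication licensing (-1.97), Dnmt1, the maintenance DNA methyltransferase (-1.96), and Rfc2, a subunit of the clamp loader (-1.57), while Timeless, of the replication fork, rose (1.48). In C498 vs NC 2 were called higher, among them the histone chaperone Nasp (1.18), and 0 lower (5.64% and 1.36% of all tested genes). In C498+LPS vs LPS 4 were called higher, among them Nasp (1.52), Dut, which clears dUTP (1.47), and Slbp, which binds histone mRNA (1.15), and 1 lower, Timeless (-1.0), against 5.39% and 2.18% of all tested genes. The medians with C498 were 0.22 and 0.43 (0.10 and 0.35 after centring), against 0.01 over all genes in both comparisons (-0.11 and -0.07 after centring). With LPS on C498, 0 were called higher and 3 lower, Dnmt1 (-1.73), Rfc1 (-1.16) and Gmnn (-1.08), against 2.52% and 3.13% of all tested genes. Some of these calls were lost when 1 sample was left out, with the direction kept. That of Timeless was lost with LPS alone without LPS replicate 2 (1.31, limma adjusted p = 0.056), and in C498+LPS vs LPS without any 1 of the LPS, C498 and C498+LPS samples (log2 changes of -0.84 to -1.17, adjusted p of 0.0629 to 0.228). Dut lost its call without C498+LPS replicate 2 or either LPS replicate (log2 changes of 1.07 to 1.53, limma adjusted p = 0.064 to 0.0926). With LPS on C498, Gmnn lost it without any 1 of the LPS, C498 and C498+LPS samples (log2 changes of -0.82 to -1.34, limma adjusted p of 0.0593 to 0.182) and after centring (-0.87, 0.0973), and Rfc1 was under 2-fold after centring (-0.94).

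Of the mitosis list, with 52 tested, 0 were called higher and 2 lower with LPS alone, Psrc1, a microtubule regulator (-1.66), and the phosphatase Cdc25b (-1.53), where 5.55% and 6.68% of all tested genes were called. With C498, 5 were called higher against NC and 7 against LPS, where 5.64% and 5.39% of all tested genes were, and 0 were called lower. In C498 vs NC 38 of the 52 were higher and 14 lower (34 and 18 after centring), at a median of 0.24 against 0.01 over all tested genes, and in C498+LPS vs LPS 37 and 15 (29 and 23), at a median of 0.17 against 0.01. The groups did not overlap for 28 higher and 4 lower in C498 vs NC, where 29.3% and 28.4% of all tested genes were so, and for 23 and 7 in C498+LPS vs LPS, where 31.9% and 30.9% were. Named in both were Psrc1 (1.26 and 2.85), Gtse1 (1.98 and 1.77), Ckap2 (1.60 and 1.59) and Cks1b, a subunit of CDK complexes (1.12 and 1.61). With LPS on C498, Cdc25b (-1.29) and Dlgap5 (-1.16) were called lower and Ckap2l (1.12) higher, where 3.13% and 2.52% of all tested genes were. Without any 1 of the C498 and C498+LPS samples these last 3 calls were lost, with the direction kept here and in the losses that follow (limma adjusted p = 0.0598 to 0.157). In C498 vs NC, the calls of Psrc1, Gtse1, Ckap2 and Cks1b were all lost without either C498 replicate (limma adjusted p = 0.0568 to 0.129), and those of Psrc1, Ckap2 and Cks1b also without NC replicate 2 (0.0522 to 0.0682). In C498+LPS vs LPS, Gtse1 and Ckap2 lost theirs without C498+LPS replicate 2 or either LPS replicate (limma adjusted p = 0.0516 to 0.097). After centring, Cks1b in C498 vs NC (0.998) and Dlgap5 with LPS on C498 (-0.94) were under 2-fold.

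Of the list of G1 control, with 39 tested, 3 were called higher and 3 lower with LPS alone, where 5.55% and 6.68% of all tested genes were. The checkpoint kinase Chek2 (-2.24) and Gadd45g, a stress-induced growth arrest gene (-1.32), were lower, whereas Gadd45b, its relative (1.88), Ccng2 (1.5) and Rbl1, a relative of the retinoblastoma protein (1.43), were higher. With C498, 8 were called higher against NC and 5 against LPS, where 5.64% and 5.39% of all tested genes were, and 0 lower, at medians of 0.22 and 0.24. At most 5 genes of a list were named for a comparison, by the size of their change. Gadd45g (1.71 and 1.17) and the antiproliferative gene Btg1 (1.39 and 1.16) were named in both. Gadd45b (2.33) was among those called in C498 vs NC, and Tob1 (1.88), Myc (1.54) and Gadd45a (1.11) were among those called in C498+LPS vs LPS. With LPS on C498, Gadd45g (-1.86) and Chek2 (-1.64) were called lower and 0 higher, where 3.13% and 2.52% of all tested genes were. Rbl1 lost its call with LPS alone without LPS replicate 1 (limma adjusted p = 0.0523), Myc without LPS replicate 1 (0.0501), and Chek2 with LPS on C498 without any 1 of the C498 and C498+LPS samples (0.0757 to 0.119).

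Other known targets of p53 made up the list with the most calls for C498 among the 4. All 20 were tested, and 12 were called higher in C498 vs NC and 11 in C498+LPS vs LPS, with 0 lower, where 5.64% and 5.39% of all tested genes were called higher. By direction alone, 17 were higher and 3 lower in C498 vs NC, and 16 and 4 in C498+LPS vs LPS. This list, like the others, was chosen with earlier results of these data known. The median log2 change was 1.10 and 1.06, against 0.01 over all genes in both comparisons. The largest changes in C498 vs NC were those of Gdf15, a stress cytokine (3.0), Ddit4, an mTORC1 inhibitor (2.21), Mdm2, the ubiquitin ligase of p53 (2.16), and the kinases Plk2 (2.13) and Plk3 (2.10). Those in C498+LPS vs LPS were Phlda3, an Akt inhibitor (3.10), Ddit4 (2.34), Trp53inp1 (2.24), Eda2r (1.88) and Pmaip1, which encodes the cell death protein Noxa (1.85).

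LPS alone moved the p53 targets both ways. Gdf15 (1.79) and Plk2 (1.75) were called higher and Phlda3 (-2.06), Sesn1 (-1.94) and Zmat3 (-1.03) lower, with a median of -0.06 against -0.17 over all genes, of which 5.55% were called higher and 6.68% lower. The call of Zmat3 was lost without LPS replicate 1 (limma adjusted p = 0.0613), LPS replicate 2 (0.0773) or NC replicate 1 (-0.76, under 2-fold) and after centring (-0.86, under 2-fold). With LPS on C498 0 of 20 were called in either direction, and 8 had an unadjusted p under 0.05 in limma, as had 31.9% of all tested genes. In the interaction, Gdf15 (-1.99) and Gadd45b (-1.54), both at a limma adjusted p of 0.0128, were called lower along with Cdkn1a, and no other gene of the 4 lists was called, where 0.394% of all tested genes were called lower and 0.0738% higher. Gdf15 lost this call without LPS replicate 1 (-1.98, limma adjusted p = 0.0891) or LPS replicate 2 (-2.0, 0.061), and Gadd45b without either LPS or C498+LPS replicate or C498 replicate 1 (-1.5 to -1.58, 0.0576 to 0.0891) and after centring (-1.5, 0.0807). Every change named as called for the 4 lists had a limma adjusted p of at most 0.0488. The fibroblast and mesothelial marker sums were higher and the macrophage and neutrophil sums lower in the same samples with C498, and their part in the result was not tested.

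**Figure D5:**
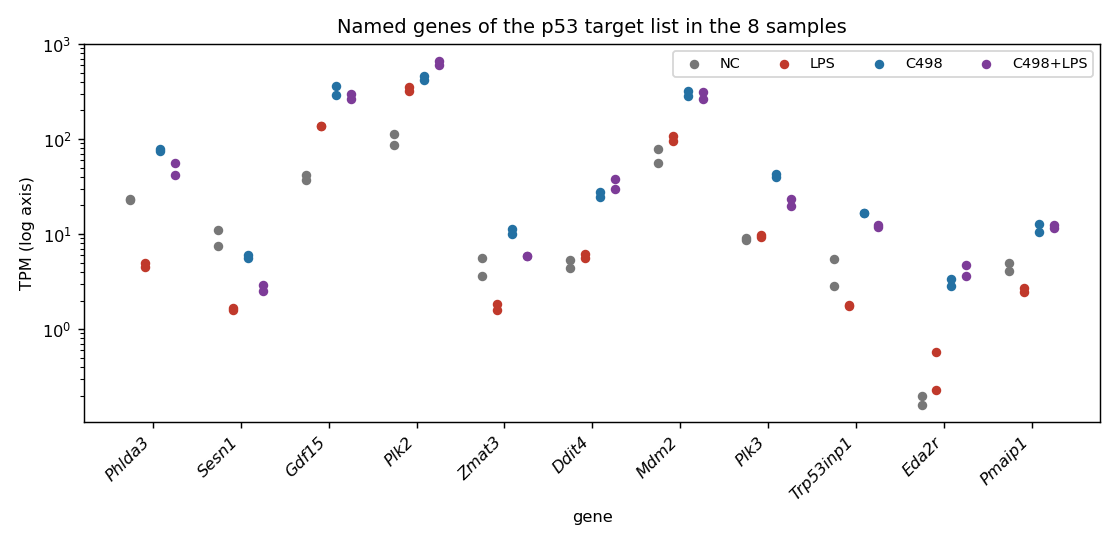
TPM levels (log axis) of the named genes of the p53 target list in the 8 samples, 1 point a sample and coloured by group. All 11 were named for their calls, and all but Sesn1, which is highest in NC, are higher in all 4 samples with C498 than in all 4 without it.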

How the data were processed

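RNA of 8 samples of mouse macrophages was sequenced on an Illumina NovaSeq. The tools named in the submitters' processing notes are fastp, HISAT2, StringTie and RSEM; their versions, genome build and annotation are not given in the sources used here. The authors deposited 1 TPM value for each gene in each sample. Their columns of group means and of KEGG and GO terms were not used. The authors tested counts with DESeq2; counts were not analysed here, so values were fitted as log2(TPM + 1) with limma 3.58.1 in R 4.3.3, with 1 mean per group over all 8 samples, a variance trend and Benjamini-Hochberg adjustment over the 12189 genes with a mean of at least 1 TPM. The script was tested on simulated data. TPM values keep no depth, and precision is known only from replicates. Coordinates are those of GENCODE M21 (GRCm38), matched by Ensembl identifier for all 40 genes. Sequences are from RefSeq.

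The 40 genes and the other lists were chosen with earlier results of these data known. Changes are printed for genes called in a comparison, for relatives of a called gene, and for the most abundant gene of a class. Of the other lists, up to 5 called genes per list and comparison whose replicates do not overlap, those with the largest changes, could be named. E2f1, Tyms, Top2a, Bub1b and Cdk1 were named after their values were seen. As alternatives, 0.1 replaced the pseudocount, the filter was dropped or raised to 5 TPM, samples were centred on the median gene, each comparison was fitted by itself, and the fold threshold was dropped. Further alternatives were the replicate number as a block, and leaving out each sample in turn. Figures were drawn with matplotlib 3.10.9.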

Additional observations from a re-analysis of the deposited data

Results flagged for a closer look

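The interaction of C498 and LPS was -1.13 on the log2 scale for Cdkn1a, with a limma adjusted p of 0.019. The call was lost without any 1 of the LPS, C498 or C498+LPS samples (limma adjusted p = 0.0591 to 0.102), while the interaction itself stayed at -1.08 to -1.19.

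Cdk1 was higher with LPS in every sample when C498 was absent (log2 change 0.28) and lower in every sample when it was present (-0.16). The test of this difference did not pass (interaction -0.44, limma adjusted p = 0.469), and after each sample was centred on its median gene Cdk1 was higher with LPS on C498 as well, so the directions were then no longer opposite.

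E2f1 was lower in every C498 sample than in NC (log2 change -0.23) and higher in every C498+LPS sample than in LPS (0.08), and the interaction of 0.31 did not pass (limma adjusted p = 0.623). E2f2, in a fit without the filter on low values, showed the same directions, at -0.64 and 0.39, with an interaction of 1.03 (limma adjusted p = 0.365). Cdk1, E2f1 and E2f2 stand here because the samples of the groups did not overlap and lay in opposite directions.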

How the results depend on the processing

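Counts refer to the 39 tested genes. With the filter raised to 5 TPM, the genes called lower went from 1 to 0 in LPS vs NC, and likewise in C498+LPS vs LPS, as Cdkn2c and Plk1 were then untested. In a fit of only the groups compared, 1 instead of 3 was called higher in C498 vs NC, and the cause was not tested. Without the fold threshold, 5 were called lower in LPS vs NC, 8 higher and 1 lower in C498 vs NC, 9 higher in C498+LPS vs LPS, and for C498+LPS vs C498 there was 1 lower. Leaving out each sample in turn gave 3 to 4 higher and 0 to 1 lower in LPS vs NC, 1 to 4 higher and 0 to 0 lower in C498 vs NC, 0 to 4 higher and 0 to 2 lower in C498+LPS vs LPS, 1 to 2 higher and 0 to 0 lower in C498+LPS vs C498, and 0 to 1 lower in the interaction.

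Whether samples with the same replicate number share a mouse or culture is not known. The correlation of deviations between same-numbered samples was 0.0397 to 0.168, which cannot decide it. The fit with the replicate block gave the same counts as the fit without it in all 5 tests, such as 4 higher and 1 lower in LPS vs NC and 3 higher in C498 vs NC. Of 1468 values of 107 single-gene results under alternatives, 146 lost a call, 6 gained one and 1 reversed: Ccne1 in C498 vs NC, 0.14 over all samples, from -0.068 without C498 replicate 2 to 0.34 without C498 replicate 1. Of 64 named results of other lists, 26 lost the call under at least 1 alternative. The depth is unknown, so what it limits cannot be given.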

Other observations

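Some replicates differed widely, such as those of Cdk6 in NC, at 15.6 and 4.84 TPM, and of Ube2c in C498+LPS, at 4.38 and 10.8 TPM. Exons of 14 of the 40 genes overlap a gene on the opposite strand, among them Cdk4 (Tspan31), Ccnd3 (Bysl), Cdk2 (Pmel) and Ccna2 (Exosc9), and exons of 2, Mcm7 and Top2a, overlap one on the same strand.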
